A study of Mus musculus with 8 samples.

Results

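Core-binding factor beta (CBFβ, encoded by Cbfb) binds no DNA itself but holds the RUNX proteins RUNX1, RUNX2 and RUNX3 on it, and these factors direct blood stem cells, megakaryocytes, lymphocytes and granulocytes. The subject here is the genotype by cell type interaction: for each gene, the difference between Cbfb-deficient and heterozygous cells in granulocyte-monocyte progenitors (GMP) minus the same difference in LSK cells. LSK cells are the lineage-negative, Sca-1-positive, Kit-positive marrow fraction that holds the stem cells and the earliest progenitors, and GMP are the later progenitors that give rise to neutrophils and monocytes. All 8 arrays of the series entered, and the members were the 21789 of 35556 rows of the deposited table that carry exactly 1 gene symbol (19938 genes). A row is 1 probe set of the array, and a gene can have several.

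Both genotypes carried the Vav1-iCre transgene, whose promoter is active across blood cells, on a C57BL6 background (N12 backcrossed), and the mice were 7 weeks old. The deficient group, called KO, was Vav1-iCre x Cbfb(F/F), and the control group, called Het, was Vav1-iCre x Cbfb(F/+), so it carried Cre and could lose 1 of its Cbfb copies. No wild-type group enters these comparisons. From 2 mice of each genotype, 200000 cells of either fraction were sorted at a purity above 98%, and their amplified RNA was hybridised to Affymetrix Mouse Gene 1.0 ST arrays, which gave 2 arrays for each of the 4 groups. Within a genotype both fractions came from the same pair of mice, but the labels do not say which arrays share a mouse. All values below are log2 expression, and a difference of 1 is a doubling.

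The Cbfb row read 7.56 and 7.55 in Het LSK, 6.93 and 6.98 in KO LSK, 7.53 and 7.65 in Het GMP, and 6.48 and 6.96 in KO GMP. The KO arrays lay under the Het arrays in both fractions. KO minus Het was -0.60 (SE 0.16, adjusted p 0.056) in LSK, which missed the threshold of 0.05, and -0.86 (SE 0.16, adjusted p 0.013) in GMP, and the interaction was -0.26 with a 95% interval from -0.77 to 0.25 (adjusted p 0.73). The row pools probes along the transcript, and the sources used here do not say how many of them lie in the deleted part. The 4 granule genes that mark GMP (Mpo, Elane, Prtn3 and Ctsg) averaged 12.28 to 12.31 on the Het GMP arrays and 12.06 to 12.15 on the KO GMP arrays, against 9.39 to 9.47 in Het LSK and 8.52 to 9.11 in KO LSK. The stem cell markers Mecom, Procr, Hlf and Meis1 averaged 7.84 to 8.29 in Het LSK, 6.43 to 7.07 in KO LSK, 4.86 to 5.01 in Het GMP and 5.76 to 5.88 in KO GMP. On average both marker sets separated the fractions in either genotype. The stem cell averages lay closer together in KO than in Het, and the granule gene averages did not. The stem cell markers did not move as 1: in GMP Meis1 rose by 3.11, while Mecom (-0.07), Procr (-0.14) and Hlf (0.66) did not pass. In LSK Mecom (-2.47), Procr (-2.27) and Hlf (-1.11) fell, while Meis1 (0.60) did not pass. Sca-1 itself (Ly6a) was not analysed here. Kit (0.15, 95% interval -0.33 to 0.63) and Cd34 (0.01, -0.48 to 0.50), which also set the gates, had no called interaction. The remaining gate marker, Fcgr3, and its relative Fcgr2b are described with the genes that passed in LSK. Over the tested rows the correlation was 0.990 to 0.995 between the 2 arrays of a group and 0.955 to 0.983 across groups. Single marker sets could still differ between the arrays of a group. The 4 mature neutrophil markers (Ltf, Camp, S100a8 and Mmp8) averaged 7.37 on one Het LSK array and 9.04 on the other. They averaged 7.60 to 8.28 in KO LSK, 9.13 to 9.88 in Het GMP and 8.61 to 8.91 in KO GMP.

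The Cbfb effect differed between LSK and GMP in 499 of 21789 rows, or 2.29% (limma, Benjamini-Hochberg adjusted p under 0.05). In 368 rows (1.69%) the interaction was positive, meaning that KO minus Het was more positive in GMP than in LSK, and in 131 rows (0.601%) it was negative. With 1 row per gene the call held for 451 of 19938 genes (2.26%), 343 of them positive (1.72%) and 108 negative (0.542%). The effect of genotype inside a fraction was called more often: in LSK 1684 rows passed (7.73%; 657 higher in KO, 3.02%, and 1027 lower, 4.71%), and in GMP 1312 rows (6.02%; 752 higher, 3.45%, and 560 lower, 2.57%). The split of the interaction calls leaned to positive values (73.7%), and less so once each array's median was subtracted (275 of 471, or 58.4%), a scaling that moves the median interaction of all rows from -0.02 to -0.16. Leaving out 1 array at a time, 172 of the 499 rows passed in every one of the 8 fits. The number of called rows was 223 without Het GMP replicate 1, 250 without Het GMP replicate 2, 258 without KO GMP replicate 2, 294 without Het LSK replicate 2, 308 without KO GMP replicate 1, 357 without Het LSK replicate 1, 432 without KO LSK replicate 2 and 705 without KO LSK replicate 1. Of the 499 rows, 134 passed when all 35556 rows of the table were fitted together.

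The 499 rows were sorted by what the effect did in each fraction. An array reports a background reading for genes that are silent, and the floor was set at 3.99, the 95th percentile of 1205 rows of smell and pheromone receptor genes, which belong to the nose. In 94 rows (18.8%) both groups of at least 1 fraction lay under that floor: 58 in GMP, 24 in LSK and 12 in both. Above the floor, 25 rows were reversals, in which the effect passed the test in both fractions with opposite signs. In 74 rows the effect passed in both with the same sign, and was larger in GMP for 32 and in LSK for 42. The effect passed in GMP alone for 138 rows and in LSK alone for 163, and in neither for 5. The LSK difference had the opposite sign in 74 of the 138, and the GMP difference in 79 of the 163, without passing its own test.

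**Figure D1:**
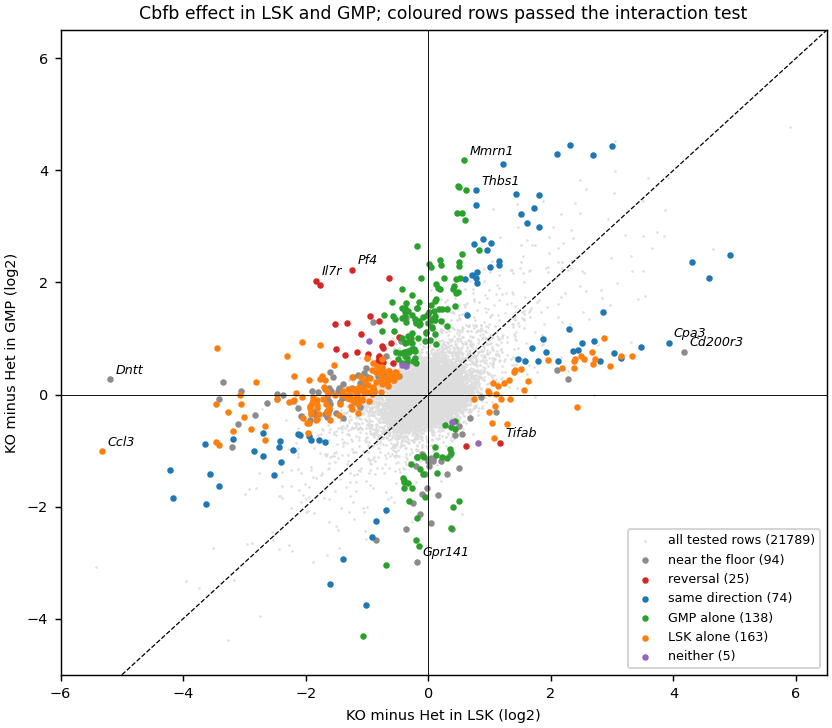
Each point is 1 row of the array, with KO minus Het in LSK on the horizontal axis and in GMP on the vertical axis, both in log2 units. The dashed line marks equal effects, grey points are all 21789 tested rows, and coloured points are the 499 rows with a called interaction by class. The 25 reversals lie in the upper left and lower right corners, and most called rows lie along 1 of the axes.

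Reversals ran mostly one way: in 23 of the 25 rows KO was lower than Het in LSK and higher than Het in GMP, and in 2, Tifab and Fkbp1b, the reverse held. The smaller of the 2 effects had a size of 0.48 to 1.84, and it reached 1 in 6 rows. The Het and KO arrays did not overlap in either fraction in any of the 25 rows. The same held for 25.5% of all tested rows, while 2.29% of all tested rows were called in the interaction. A reversal needs both tests to pass, so the lack of overlap describes the class and adds no support to it. Il7r, the alpha chain of the interleukin-7 receptor on lymphoid progenitors, read 7.42 and 7.16 in Het LSK, 5.93 and 4.98 in KO LSK, 3.40 and 3.42 in Het GMP, and 5.58 and 5.30 in KO GMP. It was thus high in Het LSK alone, and the KO means of both fractions came within a few hundredths of each other, at 5.46 in LSK and 5.44 in GMP. Its effect was -1.84 (SE 0.27, adjusted p 0.0031) in LSK and 2.03 (SE 0.27, adjusted p 0.0021) in GMP, an interaction of 3.86 (SE 0.38, adjusted p 0.0022). Het GMP lay under the floor for Il7r, so the size of its rise in GMP is set in part by that floor.

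Pdzk1ip1, a small membrane protein of stem cells and early megakaryocytic cells, followed the same course. It read 7.63 and 8.31 in Het LSK, 6.47 and 5.92 in KO LSK, 5.38 and 5.78 in Het GMP, and 7.75 and 7.30 in KO GMP. KO and Het changed rank between the fractions, with an interaction of 3.71 (SE 0.39, adjusted p 0.0027) from -1.77 in LSK (adjusted p 0.0044) and 1.95 in GMP (adjusted p 0.0031). Pf4, the platelet chemokine factor 4, read 8.69 and 8.84 in Het LSK, 7.33 and 7.70 in KO LSK, 7.41 and 7.95 in Het GMP, and 9.67 and 10.14 in KO GMP. Here the KO GMP arrays stood above all other arrays, and the KO LSK and Het GMP arrays overlapped. The effect was -1.25 (SE 0.22, adjusted p 0.0094) in LSK and 2.23 (SE 0.22, adjusted p 0.00049) in GMP, with an interaction of 3.48 (SE 0.32, adjusted p 0.0016). Without Het LSK replicate 2 the LSK effect of Pf4 was -1.17 (adjusted p 0.071), so that its place among the reversals rests on that array, while its interaction passed in all 8 fits.

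The sequence before the start of transcription is shown for these reversals because RUNX proteins bind a short core, TGTGGT, and CBFβ acts through them. In RefSeq windows of 250 bases before the start (GRCm38.p6), searched on both strands, the core was present in 14.0% of all 32851 windows and in 11.8% of the 19177 windows of tested genes. Of the 25 reversal genes 19 had a window, and the core stood in 2 of their 25 windows (8%), 1 of Ly75 and 1 of Dzip1. The windows of Il7r (chr15:9529877-9530126, minus strand) and Pf4 (chr5:90772185-90772434, plus strand) hold no match to these letters, nor does that of Pdzk1ip1, which is not shown. The Dzip1 window (chr14:118923168-118923417, minus strand) holds 2 on the opposite strand, written in capitals, 187 and 74 bases before the start. Dzip1 and Ly75 were named for that match, after their values were seen.
Il7r: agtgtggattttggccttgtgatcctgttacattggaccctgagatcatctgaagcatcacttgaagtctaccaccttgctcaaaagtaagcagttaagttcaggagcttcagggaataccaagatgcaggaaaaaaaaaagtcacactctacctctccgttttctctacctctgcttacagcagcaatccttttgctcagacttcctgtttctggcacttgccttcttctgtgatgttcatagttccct
Pf4: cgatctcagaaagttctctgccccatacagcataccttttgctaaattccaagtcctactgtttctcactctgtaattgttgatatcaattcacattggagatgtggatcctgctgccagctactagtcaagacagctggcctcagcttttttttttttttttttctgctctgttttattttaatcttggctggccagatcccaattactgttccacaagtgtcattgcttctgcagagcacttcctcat
Dzip1: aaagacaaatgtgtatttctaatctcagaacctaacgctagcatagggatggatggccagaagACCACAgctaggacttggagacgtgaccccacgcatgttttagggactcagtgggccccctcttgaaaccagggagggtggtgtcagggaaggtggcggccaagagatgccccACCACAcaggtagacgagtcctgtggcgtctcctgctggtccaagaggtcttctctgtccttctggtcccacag
A match is a run of letters and does not show binding. Over all called genes the core stood in 15.8% of 475 windows.

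Another 4 reversals kept their class in all 8 fits that left out 1 array, as did Il7r and Pdzk1ip1, which makes 6 of 25. Trp53i11, a gene induced by p53, read 8.41 and 8.38 in Het LSK, 6.76 and 6.97 in KO LSK, 5.61 and 5.59 in Het GMP, and 6.72 and 6.99 in KO GMP. The KO arrays of both fractions lay together between Het GMP and Het LSK, and the effects were -1.53 (SE 0.14, adjusted p 0.00019) and 1.26 (SE 0.14, adjusted p 0.00069). Tspan13, a tetraspanin of the cell surface, fell by 1.10 in LSK and rose by 1.09 in GMP, with an interaction of 2.18 (SE 0.17, adjusted p 0.0013). Carmil2, a regulator of actin capping that takes part in T cell co-stimulation, had effects of -0.75 and 0.87 and an interaction of 1.62 (SE 0.17, adjusted p 0.0027). The fourth is an unnamed gene that was only counted. Prkch, protein kinase C eta, had effects of -0.80 and 1.31, but its LSK effect had an adjusted p of 0.057 without Het LSK replicate 2.

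Other members of the class held less firmly, since 10 of 25 kept it in at least 6 fits and 18 in at least 4. Mef2c, a transcription factor of lymphoid and megakaryocytic cells, read 8.81 and 8.79 in Het LSK, 8.02 and 7.63 in KO LSK, 7.27 and 7.26 in Het GMP, and 7.93 and 8.06 in KO GMP. Its groups did not overlap in either fraction, and its effects were -0.98 in LSK and 0.73 in GMP, but the GMP effect did not pass when any 1 of the 4 GMP arrays was left out (adjusted p 0.072 to 0.149). Igf2r, the mannose 6-phosphate receptor that sorts lysosomal enzymes, fell in LSK to the floor (-1.50), and its rise of 0.81 in GMP likewise needed all 4 GMP arrays (adjusted p 0.051 to 0.070). Rab37, a vesicle GTPase, had effects of -1.16 and 0.76, and the GMP effect was lost without either Het GMP array or KO GMP replicate 2 (adjusted p 0.121 to 0.196). Cavin2, a coat protein of caveolae, rose by 1.40 in GMP, and its fall of 0.95 in LSK did not pass once replicate 2 of Het LSK (adjusted p 0.092) or of KO LSK (0.088) was left out. The interaction itself passed in all 8 fits for 24 of the 25 rows, including each of these genes. When all rows of the table were fitted together, 9 of the 25 kept the class.

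The 2 genes that moved the other way were high in Het GMP. Tifab, a regulator of the TRAF6 signal protein, read 6.44 and 5.98 in Het LSK, 7.48 and 7.29 in KO LSK, 8.22 and 8.21 in Het GMP, and 7.56 and 7.16 in KO GMP. The KO arrays of both fractions lay between Het LSK and Het GMP, apart from an overlap of KO LSK with KO GMP. Its effects were 1.17 (SE 0.18, adjusted p 0.0048) in LSK and -0.86 (SE 0.18, adjusted p 0.027) in GMP, the second of which was lost without either Het GMP array or KO GMP replicate 2 (adjusted p 0.137 to 0.202). Fkbp1b, which binds the ryanodine receptor calcium channel, had effects of 0.62 (SE 0.13, adjusted p 0.023) and -0.91 (SE 0.13, adjusted p 0.0036), and the first was lost without either Het LSK array or KO LSK replicate 2 (adjusted p 0.057 to 0.143). In 4 of the 25 reversals (Il7r, Cavin2, Dzip1 and Gucy1a1) at least 1 group mean was under the floor. For Cavin2 these were KO LSK (3.57) and Het GMP (3.58), so the floor sets in part the size of its effect in both fractions. With array medians subtracted 21 of the 25 kept the class. Lfng, Plaat3, Ly75 and Gucy1a1, named as the exceptions after their values were seen, did not.

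**Figure D2:**
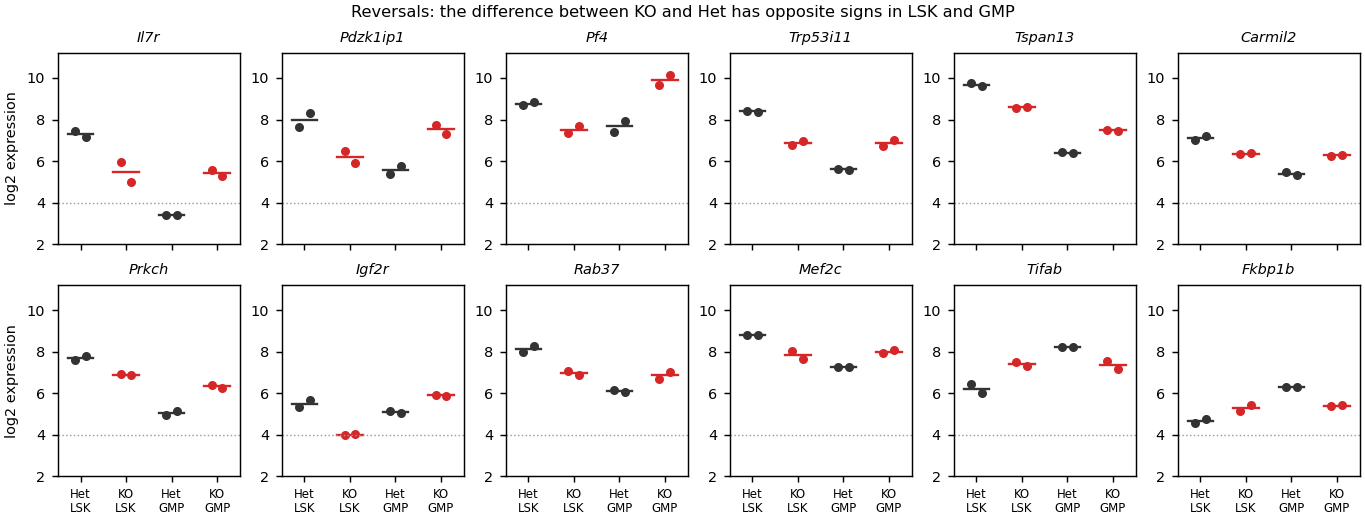
Log2 expression of 12 reversals on each of the 8 arrays, with points for arrays, bars for the mean of 2 arrays, and Het in black and KO in red. The dotted line is the floor of 3.99. In the first 10 genes KO lies under Het in LSK and above it in GMP, and in Tifab and Fkbp1b the order is turned.

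The largest interaction of all called genes belonged to a gene near the floor. Dntt, the terminal transferase that adds bases to antigen receptor joints, read 10.78 and 10.49 in Het LSK, 6.33 and 4.56 in KO LSK, 3.10 and 3.79 in Het GMP, and 3.47 and 3.98 in KO GMP. It was bright in Het LSK only, and the 2 KO LSK arrays lay apart. Its effect was -5.19 (SE 0.49, adjusted p 0.00026) in LSK, and in GMP, where both groups lay under the floor, 0.28 with no information on a change; the interaction was 5.47 (SE 0.69, adjusted p 0.0058). Of the 58 rows near the floor in GMP 53 had a positive interaction, and in all 53 Het LSK was above the floor. The gene fell in KO LSK by its own test in 51 of them, to a mean that was itself under the floor in 42. The class takes both GMP means under the floor and at least 1 LSK mean above it. With a positive interaction, a high Het LSK and a fall in LSK nearly follow from that rule, so they describe the class only. Over all 58 rows the median of the group means was 5.14 in Het LSK, 3.61 in KO LSK, 3.37 in Het GMP and 3.38 in KO GMP.

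Genes of B and natural killer cells were among the GMP floor rows. Ebf1, the factor that commits cells to the B lineage, read 6.93 and 6.79 in Het LSK, 3.75 and 3.14 in KO LSK, 2.89 and 3.14 in Het GMP, and 3.10 and 2.78 in KO GMP. The Het LSK arrays were the only ones above the floor. Cd79a, a signal chain of the B cell receptor, had an LSK effect of -3.05 and an interaction of 3.11 (SE 0.24, adjusted p 0.0013), and Blnk, its adaptor, of -3.35 and 3.58 (SE 0.42, adjusted p 0.0045). Klrd1, the CD94 receptor of natural killer cells, had an interaction of 2.36 (SE 0.28, adjusted p 0.0047) and Ifit3, an interferon-induced gene, of 1.99 (SE 0.25, adjusted p 0.0058). In the opposite direction, the other 5 rows near the floor in GMP rose in KO LSK. Cd200r3, a receptor of basophils and mast cells, read 2.47 and 2.56 in Het LSK, 6.98 and 6.38 in KO LSK, 2.85 and 2.79 in Het GMP, and 4.13 and 3.03 in KO GMP, so that it was near or under the floor everywhere but in KO LSK, with an interaction of -3.41 (SE 0.45, adjusted p 0.0067). Gimap4, a GTPase of lymphocytes, rose by 2.28 in LSK and had an interaction of -2.01 (SE 0.24, adjusted p 0.0047).

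Near the floor in LSK, 22 of 24 rows had a negative interaction, and in all 22 the gene fell in KO GMP from a Het GMP mean above the floor. With both LSK means under the floor by the class rule, this too nearly follows from the rule. Gpr141, an orphan receptor of myeloid cells, read 2.59 and 2.91 in Het LSK, 2.50 and 2.64 in KO LSK, 5.73 and 5.77 in Het GMP, and 2.95 and 2.59 in KO GMP. Only the Het GMP arrays were above the floor, and the GMP effect was -2.98 (SE 0.16, adjusted p 2.7e-05). Itga1, a collagen-binding integrin chain, fell by 2.28 in GMP (interaction -2.32 (SE 0.29, adjusted p 0.0058)). Mefv, which encodes pyrin, had an interaction of -2.03 (SE 0.30, adjusted p 0.011), and Otogl, an inner ear protein gene, of -1.98 (SE 0.30, adjusted p 0.012); the first missed the threshold without Het GMP replicate 2 (adjusted p 0.058) and the second without Het LSK replicate 2 (adjusted p 0.056). Lifr, the leukemia inhibitory factor receptor (1.42), and Catspere2 (-1.25), a sperm channel gene, had called interactions with both fractions under the floor, and their readings are too low to name a level. The line is a choice: the called genes just inside it were Patj, Xdh and Slc44a1 (3.95, 3.96 and 3.97 for the higher mean of the low fraction), and those just outside were Islr, Drc7 and Ipcef1 (3.998, 4.03 and 4.05). At the 90th percentile of the nose receptor rows (3.59) 56 rows counted as near the floor, and at the 99th (4.83) 179, while the reversals numbered 25 and 23.

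**Figure D3:**
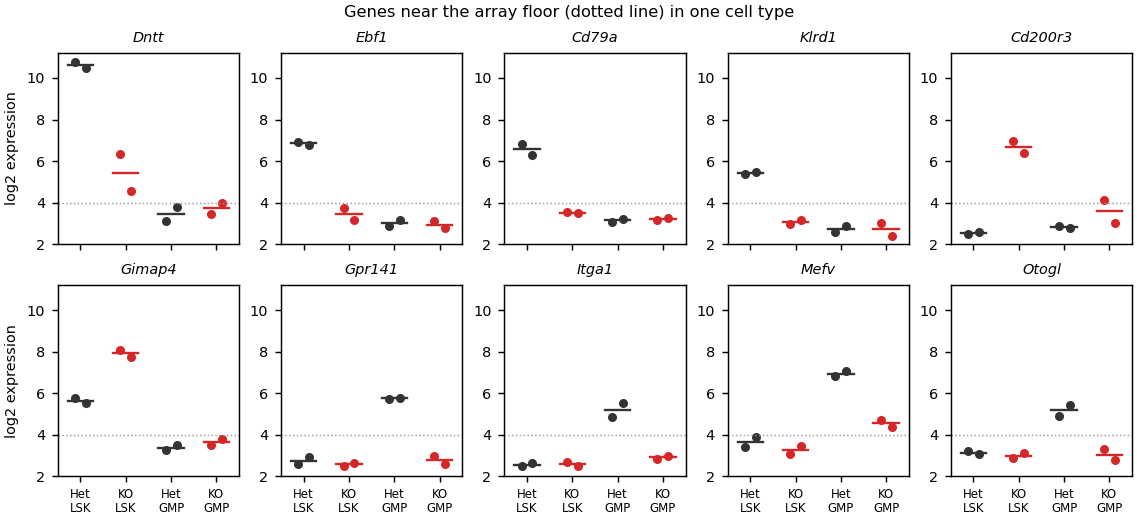
Log2 expression of 10 genes with a called interaction that lie near the floor (dotted line, 3.99) in 1 fraction, on each of the 8 arrays, with bars for group means, Het in black and KO in red. Dntt, Ebf1, Cd79a and Klrd1 are well above the line in Het LSK and under or near it in both GMP groups, and Gpr141, Itga1, Mefv and Otogl are under it in LSK.

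Among rows that changed the same way in both fractions, those with a larger effect in GMP were chiefly genes that rose. In 26 of the 32 rows the interaction was positive, and 25 of the 26 had Het LSK above Het GMP. Thbs1, the platelet adhesion protein thrombospondin 1, read 4.25 and 4.59 in Het LSK, 5.19 and 5.19 in KO LSK, 4.54 and 4.75 in Het GMP, and 8.14 and 8.43 in KO GMP. It stood between 4.25 and 4.75 on the Het arrays of both fractions, and the KO GMP arrays lay apart from all others; the effects were 0.77 (SE 0.16, adjusted p 0.019) in LSK and 3.64 (SE 0.16, adjusted p 1.6e-05) in GMP, with an interaction of 2.87 (SE 0.22, adjusted p 0.0013). Prkcq, protein kinase C theta, rose by 1.22 in LSK and 4.12 in GMP, Ctla2b, a cysteine protease inhibitor, by 0.77 and 3.38, and Lat, a signal adaptor of T cells and platelets, by 1.42 and 3.57. Prkcq read 7.16 and 7.23 in Het LSK, 8.53 and 8.31 in KO LSK, 3.93 and 4.20 in Het GMP, and 7.97 and 8.40 in KO GMP, so that Het GMP was near the floor and the KO arrays of the 2 fractions came close to each other. Of the 6 genes that fell more in GMP the leading ones were Aoah, an enzyme that inactivates bacterial lipopolysaccharide (-1.01 and -3.75, interaction -2.74 (SE 0.35, adjusted p 0.0063)), and Sorl1, a sorting receptor (-1.60 and -3.37, interaction -1.77 (SE 0.23, adjusted p 0.0063)).

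The 42 rows with a larger effect in LSK split evenly by row, 21 positive and 21 negative, but not by gene. The positive rows came from 21 genes and the negative ones from 14, as 8 negative rows belong to Chd7, described below. The positive ones fell in both fractions and further in LSK. Lsp1, an actin-binding protein of leukocytes, read 9.25 and 9.56 in Het LSK, 5.30 and 5.09 in KO LSK, 6.89 and 7.15 in Het GMP, and 5.99 and 5.34 in KO GMP. All KO arrays lay under all Het arrays, and the effects were -4.21 (SE 0.22, adjusted p 2.3e-05) in LSK and -1.35 (SE 0.22, adjusted p 0.0063) in GMP. Emb, a membrane glycoprotein used to mark progenitors, fell by 4.17 in LSK and by 1.84 in GMP, Atp8b4, a phospholipid flippase, by 3.65 and 0.89, Maged1 by 3.19 and 0.80, and Nkg7, a granule protein of cytotoxic cells, by 3.56 and 1.41. The negative ones rose in both fractions and further in LSK. Cpa3, the carboxypeptidase of mast cell granules, read 6.98 and 7.08 in Het LSK, 10.90 and 10.99 in KO LSK, 7.93 and 8.54 in Het GMP, and 9.44 and 8.88 in KO GMP. The KO LSK arrays were the highest, the KO arrays of GMP lay a little above the Het arrays, and the effects were 3.92 (SE 0.23, adjusted p 2.9e-05) in LSK and 0.93 (SE 0.23, adjusted p 0.048) in GMP (interaction -2.99 (SE 0.32, adjusted p 0.0029)). Cd200r4 rose by 4.58 and 2.08, and Fcgr2b, the inhibitory receptor for antibody constant regions, by 2.44 and 0.80 (interaction -1.64 (SE 0.23, adjusted p 0.0087)). Fgf10, a fibroblast growth factor, rose by 4.92 and 2.49 from Het means under the floor in both fractions, and its interaction of -2.43 (SE 0.36, adjusted p 0.011) missed the threshold without either Het GMP array (adjusted p 0.053 to 0.055).

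Of the 138 rows that passed in GMP alone, 104 had a positive and 34 a negative interaction. Mmrn1, a platelet granule protein, read 6.59 and 7.19 in Het LSK, 7.61 and 7.33 in KO LSK, 3.11 and 3.41 in Het GMP, and 7.32 and 7.58 in KO GMP. Het GMP was under the floor, and KO GMP reached the level of LSK, where KO minus Het was 0.58 (SE 0.21, adjusted p 0.16); the GMP effect was 4.19 (SE 0.21, adjusted p 2.7e-05) and the interaction 3.61 (SE 0.30, adjusted p 0.0013). Gp9, a chain of the platelet von Willebrand receptor, rose by 3.70 in GMP and Slc14a1, a urea transporter of red cells, by 3.71, against 0.51 and 0.48 in LSK, which did not pass. Meis1, a homeobox factor of stem cells and megakaryocytes, read 9.33 and 9.64 in Het LSK, 10.44 and 9.72 in KO LSK, 6.001 and 6.24 in Het GMP, and 9.20 and 9.27 in KO GMP. The KO GMP arrays lay just under the LSK arrays, and the interaction was 2.52 (SE 0.32, adjusted p 0.0058). Egr1, an immediate early factor (2.77 (SE 0.33, adjusted p 0.0048)), Zfpm1, the GATA1 cofactor FOG1 (2.32 (SE 0.20, adjusted p 0.0013)), Hemgn, an erythroid nuclear protein (2.24 (SE 0.24, adjusted p 0.0029)), and Emcn, an endothelial and stem cell sialoprotein (1.86 (SE 0.19, adjusted p 0.0026)), behaved alike in direction. Gimap6 (2.83), a lymphocyte GTPase, and Foxo1 (2.04), a factor of lymphoid development, rose in GMP with an LSK difference of the opposite sign that did not pass.

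In none of the 34 rows with a negative interaction that passed in GMP alone was Het LSK above Het GMP. In some of them the 2 Het means were nearly level. Ms4a2, the beta chain of the high-affinity IgE receptor, read 3.46 and 3.63 in Het LSK, 3.99 and 4.12 in KO LSK, 5.79 and 5.51 in Het GMP, and 3.76 and 3.74 in KO GMP. KO GMP came down to the floor, under KO LSK, and the interaction was -2.41 (SE 0.19, adjusted p 0.0013). Ccr2, the chemokine receptor of monocytes, had an effect of -2.001 in GMP against 0.40 in LSK (interaction -2.40 (SE 0.25, adjusted p 0.0026)), Ncam1, a neural adhesion molecule, fell by 2.70 (interaction -2.55 (SE 0.33, adjusted p 0.0063)), and Afap1, an actin filament protein, fell by 2.60 (interaction -2.39 (SE 0.23, adjusted p 0.0022)). The most negative interaction in GMP alone was that of Ly6a2, a member of a family of closely similar surface protein genes whose probes may not separate them. It read 3.46 and 5.09 in Het LSK, 3.38 and 3.05 in KO LSK, 8.02 and 8.23 in Het GMP, and 4.31 and 3.34 in KO GMP. The Het GMP arrays stood far above the others and the Het LSK arrays lay apart, and the interaction of -3.24 (SE 0.67, adjusted p 0.046) was lost in 6 of the 8 fits, all but those without Het LSK replicate 2 or KO GMP replicate 1 (adjusted p 0.052 to 0.158). Met, the hepatocyte growth factor receptor, had effects of -0.69 in LSK and -3.04 in GMP, and its interaction of -2.35 (SE 0.36, adjusted p 0.012) was lost without replicate 2 of Het LSK (adjusted p 0.055) or of Het GMP (0.062).

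The rows that passed in LSK alone held 2 of the largest positive interactions. Ccl3, an inflammatory chemokine, read 9.44 and 10.46 in Het LSK, 4.96 and 4.30 in KO LSK, 8.16 and 8.75 in Het GMP, and 7.68 and 7.20 in KO GMP. The KO LSK arrays were the lowest, while both GMP groups stayed above them, and the effects were -5.32 (SE 0.36, adjusted p 5.6e-05) in LSK and -1.01 (SE 0.36, adjusted p 0.17) in GMP, with an interaction of 4.30 (SE 0.51, adjusted p 0.0047). Wfdc17, a small secreted protein of myeloid cells, fell by 3.44 in LSK and had an interaction of 4.27 (SE 0.54, adjusted p 0.0058). Vpreb3, a B cell gene (3.29 (SE 0.32, adjusted p 0.0022)), Lax1, a lymphocyte adaptor (3.06 (SE 0.32, adjusted p 0.0027)), Mcoln2, a lysosomal channel (2.97 (SE 0.30, adjusted p 0.0026)), and Thy1 (2.61 (SE 0.37, adjusted p 0.0092)) fell in LSK with GMP differences of -0.41 to -0.01. Cd33, a sialic acid binding receptor, read 7.92 and 8.31 in Het LSK, 6.23 and 5.88 in KO LSK, 6.49 and 6.87 in Het GMP, and 7.999 and 7.24 in KO GMP. Het LSK stood above Het GMP and KO LSK under KO GMP, so the fractions changed order, but the GMP difference of 0.94 did not pass (adjusted p 0.078). Cmah, which modifies sialic acids, had effects of -2.31 and 0.69 of which the first passed.

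The most negative interaction in LSK alone, taking the brightest row of each gene, was that of Papss2, an enzyme that makes the sulfate donor of the cell. It read 4.64 and 4.84 in Het LSK, 6.51 and 7.82 in KO LSK, 7.86 and 7.96 in Het GMP, and 7.64 and 7.75 in KO GMP. The KO LSK arrays lay between Het LSK and the GMP arrays, apart from an overlap of the higher one with KO GMP, and the interaction of -2.64 (SE 0.47, adjusted p 0.024) was lost without any 1 Het LSK or GMP array (adjusted p 0.078 to 0.0999). Pla2g7, an enzyme that degrades platelet-activating factor, rose by 2.97 in LSK and had an interaction of -2.47 (SE 0.37, adjusted p 0.012); with replicate 2 of Het GMP left out it missed the threshold (adjusted p 0.054). Chd7, a chromatin remodeller, had the most called rows: 19 of its 30, all negative, from -2.64 to -0.98, of which 11 passed in LSK alone and 8 rose in both fractions and further in LSK. Its brightest row read 5.69 and 5.95 in Het LSK, 8.66 and 8.43 in KO LSK, 8.91 and 8.71 in Het GMP, and 9.59 and 9.29 in KO GMP. The KO LSK arrays came close to Het GMP, with effects of 2.72 (SE 0.16, adjusted p 3.1e-05) and 0.63 (SE 0.16, adjusted p 0.057). These rows are probe sets of a single gene and not separate observations, and they make up 19 of the 131 negative calls by row and 1 of the 108 by gene. Cst7, the protease inhibitor cystatin F, rose by 1.28 in LSK against -0.52 in GMP (interaction -1.80 (SE 0.24, adjusted p 0.0065)). Fcgr3, an antibody receptor of the GMP gate, had an interaction of -1.84 (SE 0.38, adjusted p 0.047) that was lost in 7 of the 8 fits, those without Het LSK replicate 1, either KO LSK array, either Het GMP array or either KO GMP array (adjusted p 0.065 to 0.163).

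A feature shared by most classes was that the fractions differed less in KO than in Het. The interaction equals the KO gap between GMP and LSK minus the Het gap, so it must change the gap, but whether the gap shrinks or grows is not set by the test. The gap was smaller in KO in 419 of 499 called rows (84.0%), against 13080 of 21789 tested rows (60.0%). The called rows were picked by the difference between these same gaps, so the share over all tested rows is not a like baseline. For reversals and rows near the floor the class rule bears on the gap as well. The median size of the gap went from 1.55 in Het to 0.387 in KO over called rows, from 1.65 to 0.170 over reversals and from 0.192 to 0.161 over all tested rows. In 316 of the 419 rows Het LSK had been above Het GMP, and in 103 below it. In the other 80 rows the gap was larger in size in KO, with GMP above LSK in KO in 52 and below it in 28. Some of these rows changed order with little change in size, such as Gp9 (-1.54 to 1.66) and Cd33 (-1.44 to 1.56). Thbs1 went from a gap of 0.23 to 3.10, Atp8b4 from 2.65 to 5.41 and Nkg7 from 1.75 to 3.89, with GMP higher. Gimap4 went from -2.26 to -4.27, with LSK higher. Cd200r3 (0.31 to -3.10) and Ccl3 (-1.50 to 2.81) changed sign. The 2 mice behind each genotype served both fractions, so these gaps are not built from independent animals.

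**Figure D4:**
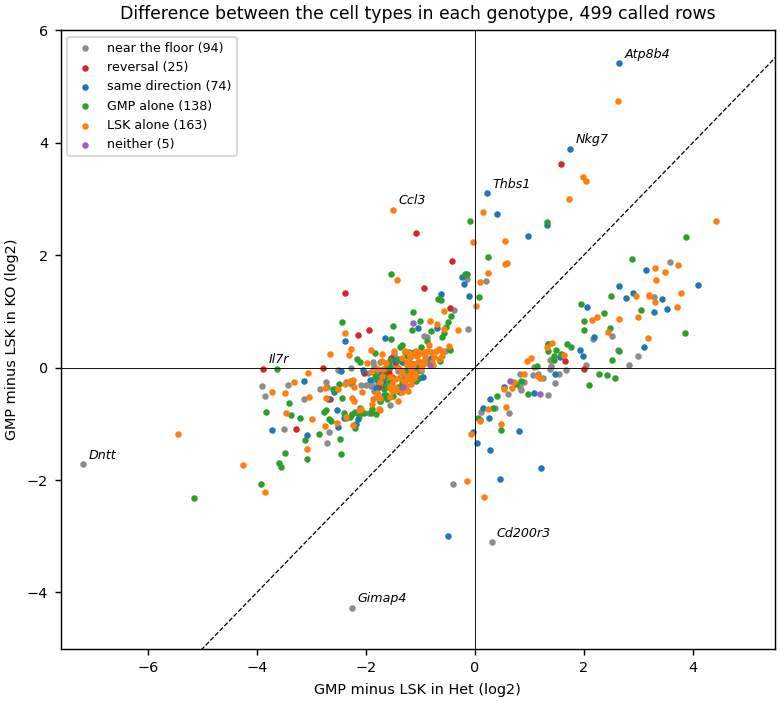
GMP minus LSK in Het (horizontal) and in KO (vertical) for the 499 called rows, in log2 units and coloured by class. Points on the dashed line would have no interaction; most rows lie near a vertical value of 0, and the median size of the gap is 1.55 in Het and 0.387 in KO.

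Platelet and megakaryocyte genes had positive interactions, with 10 of 20 measured members called (50%) against 1.72% of all genes called positive, and none negative. The list median of the interaction was 1.51, against -0.02 for all genes. KO raised 10 members in LSK and 16 in GMP, and the GMP rise was the larger: the median effect was 0.68 in LSK and 3.11 in GMP. The called members with the largest interactions are Mmrn1, Pf4, Gp9 and Thbs1. The count was 7 to 11 over the fits that left out 1 array, with 1 negative call without KO LSK replicate 2, and 5 in the fit of the whole table. The 5 measured megakaryocyte markers (Itga2b, Gp5, Gp9, Pf4 and Treml1) averaged 7.09 to 7.16 on the Het LSK arrays, 8.63 to 8.82 in KO LSK, 5.57 to 5.94 in Het GMP and 9.32 to 9.64 in KO GMP, and none was under the floor in any group. The part of megakaryocytic cells in these results was not tested. In sorted bulk RNA more cells of a type and more RNA per cell cannot be told apart, and this holds for every gene group below.

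Erythroid genes had 6 of 23 members called, all positive (26.1%), among them Car2, a carbonic anhydrase (2.65 (SE 0.37, adjusted p 0.0082)), Zfpm1 and Hemgn; the count was 4 to 8 over the fits with 1 array left out and 2 with all rows of the table fitted. Car2 fell by 1.76 in LSK, while Zfpm1 and Hemgn rose in GMP alone, so the shared sign covers different courses. The 3 measured erythroid markers averaged 5.12 to 5.20 in Het LSK, 4.72 to 4.77 in KO LSK, 4.66 to 4.84 in Het GMP and 4.99 to 5.24 in KO GMP. Stem cell genes had 8 of 28 members called, all positive (28.6%), with a list median of 1.15. Pdzk1ip1 was a reversal, Meis1 rose in GMP alone, and Mecom, a factor that stem cells need, fell by 2.47 in LSK while it lay under the floor in GMP. The interaction of Mecom was 2.39 (SE 0.37, adjusted p 0.013), and it missed the threshold without Het LSK replicate 2, either Het GMP array or KO GMP replicate 2 (adjusted p 0.053 to 0.063). The stem cell count was 5 without Het LSK replicate 2, Het GMP replicate 1 or either KO GMP array, 14 without KO LSK replicate 1, and 4 with all rows of the table fitted.

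Lymphoid genes had positive interactions, and in each of their lists more members fell in LSK than rose. Among T and natural killer cell genes 9 fell in LSK and 3 rose. In the list of genes that prime early progenitors for lymphoid fate, 15 of 26 were called, all positive (57.7%), with a median interaction of 1.53; 19 fell in LSK and none rose, while in GMP 4 rose and 5 fell. By class 4 of the 15 were near the floor, 2 were reversals (Il7r and Mef2c), 4 changed the same way in both fractions, 1 passed in GMP alone and 4 in LSK alone. The count was 8 without Het GMP replicate 1 and 6 with all rows of the table fitted. B cell genes had 9 of 18 called, all positive (50%), with 14 falling in LSK, and the count was 6 to 10 over the fits with 1 array left out. T and natural killer cell genes had 7 of 26 called, all positive (26.9%), but 4 without Het LSK replicate 1 or Het GMP replicate 2, 2 with all rows of the table fitted, and 1 negative without Het GMP replicate 1. In these lists 6 of 26, 7 of 18 and 14 of 26 members lay under the floor in both GMP groups, against 34.9% of all genes. The 3 measured B cell markers (Cd79a, Ebf1 and Pax5) averaged 6.17 to 6.57 in Het LSK, 3.67 to 3.74 in KO LSK, 3.41 to 3.59 in Het GMP and 3.44 to 3.54 in KO GMP, with 2 of 3 under the floor in every group but Het LSK. The T and natural killer cell markers averaged 5.87 in Het LSK and 3.84 to 4.19 in the other groups. The part of lymphoid cells in the LSK gate was not tested.

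Mast cell, basophil and eosinophil genes went the other way, with 6 of 20 called, all negative (30%, against 0.542% of all genes called negative). Cpa3 and Cd200r3 rose in LSK, whereas Ms4a2 fell in GMP, so this list too joins different courses under 1 sign, and its median interaction was -0.37. The count was 3 once Het GMP replicate 1 was left out and also without KO GMP replicate 2, and 2 in the fit of the whole table. The 4 mast cell and basophil markers averaged 4.66 to 4.74 in Het LSK, 5.36 to 5.40 in KO LSK, 6.25 to 6.28 in Het GMP and 5.25 to 5.74 in KO GMP, with Fcer1a under the floor on all 8 arrays (1.98 to 2.56). Among them Cpa3 rose in both fractions while Mcpt8, a basophil protease, fell by 1.69 in LSK (adjusted p 0.0036) and by 1.84 in GMP (adjusted p 0.0027), with an interaction of -0.14 (adjusted p 0.93). Monocyte, macrophage and dendritic cell genes had 3 of 33 called, all negative (9.09%), namely Aoah, Ccr2 and Fcgr3; 14 of the 33 fell in GMP and 9 in LSK. That count was 2 to 4 with 1 array left out, with 1 positive call without KO LSK replicate 1 or KO GMP replicate 2, and 1 with all rows of the table fitted. The 3 monocyte markers averaged 6.13 to 6.62 in Het LSK, 5.12 to 5.25 in KO LSK, 7.82 to 7.998 in Het GMP and 5.05 to 5.97 in KO GMP. Their averages thus fell in both fractions. The interaction was not called for Csf1r (limma, adjusted p 0.083), Cx3cr1 (0.074) or Ly86 (0.66). Whether cells of these types in the gates contributed was not tested.

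Over all genes 2.26% had a called interaction, so a count of none in a small list is near that share and no result about its members. Programs shared by dividing cells showed no called interaction. It was called in none of 36 cell cycle genes, 31 ribosome biogenesis genes and 29 oxidative phosphorylation genes (limma), nor at an unadjusted p under 0.05 except for 2 negative oxidative phosphorylation genes; without KO LSK replicate 2 a single cell cycle gene was called positive. Core-binding factor subunits and partners had none of 6 called, also near the share of all genes, and none at an unadjusted p under 0.05. Runx1, the main partner of CBFβ in blood, read 9.09 and 9.13 in Het LSK, 10.88 and 10.40 in KO LSK, 8.69 and 8.74 in Het GMP, and 10.23 and 10.15 in KO GMP, and rose by 1.53 in LSK and 1.47 in GMP with an interaction of -0.06 (95% interval -0.57 to 0.44, adjusted p 0.96). Primary granule genes had 2 positive and 1 negative calls of 24 (12.5%), where Nkg7 and Cst7 stand among the 3; the positive count was 1 without Het LSK replicate 1 or any 1 GMP array and 6 without KO LSK replicate 1, and the negative count 2 without Het LSK replicate 1. With an intensity trend in the variance these counts were 4 and 2, and in the fit of the whole table the positive count was 0. Interferon response genes had 4 positive calls of 21 (19%), among them Ifit3, but 7 without KO LSK replicate 1, 2 without Het GMP replicate 2 and 1 with all rows of the table fitted.

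The remaining lists had few calls by number, and counts this small moved with single arrays. Their shares ran from 8.33% of measured members (secondary granule) to 23.8% (endothelial and stromal), against 2.26% of all genes. Transcription factors of blood had 5 positive and 1 negative of 37 (3 to 9 and 0 to 2 with 1 array left out), cytokine receptors 5 and 0 of 30 (2 to 5 and 0 to 1), chemokines and their receptors 4 and 2 of 26 (1 to 5 and 1 to 3), and endothelial and stromal genes 4 and 1 of 21 (2 to 5 and 0 to 1). Hox genes and cofactors had 2 and 0 of 19 (1 to 3 positive), immediate early genes 2 and 0 of 23 (1 to 2 positive and 0 to 1 negative), the MHC class II pathway 2 and 0 of 9 (0 to 1 positive) and secondary granule genes 1 and 1 of 24 (1 to 2 and 0 to 1). The lists share members, such as Il7r, Meis1, Egr1 and Nkg7, and their counts are not independent.

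**Figure D5:**
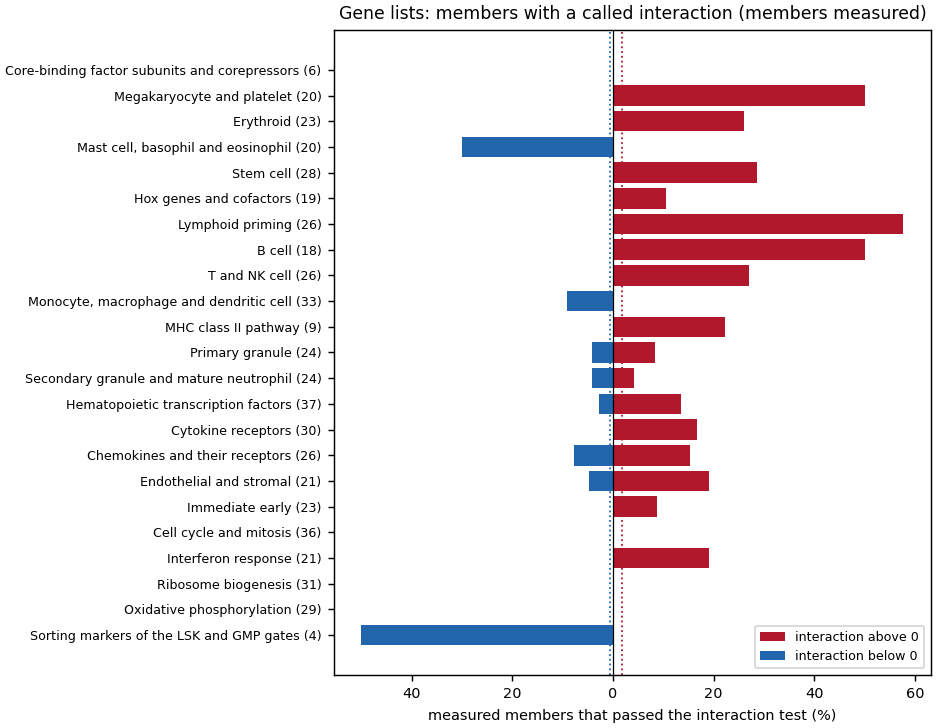
Percentage of measured members of each gene list with a called interaction, positive to the right in red and negative to the left in blue, with the number of measured members in brackets. Dotted lines mark the share of all genes called positive (1.72%) and negative (0.542%); the lymphoid priming list reaches 57.7% and the megakaryocyte and B cell lists 50%, all positive.

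The naming rule picked 113 called genes, and the 73 given above with an interaction or with effects are the steadier ones, so their record does not stand for the rest. Leaving out 1 array at a time, 64 of the 73 passed in all 8 fits, against 4 of the other 40, or 68 of 113 together. When all 35556 rows of the table were fitted together, 57 of the 113 passed: 54 of the 73 and 3 of the 40. The 19 of the 73 that did not were Aoah, Car2, Cd200r3, Cd200r4, Dntt, Fcgr2b, Fcgr3, Fgf10, Ly6a2, Mecom, Mefv, Met, Ncam1, Nkg7, Otogl, Papss2, Pla2g7, Thy1 and Wfdc17, with adjusted p from 0.051 to 0.194, and the reversals Lfng (0.059) and Ly75 (0.057), named without effects, also missed it. With each array's median subtracted 107 of the 113 passed. The 2 arrays in each group limit the precision of all these values.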

How the data were processed

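RNA of 8 sorted samples (4 groups of 2) was measured on 1-colour Affymetrix arrays. The authors deposited log2 values, 1 per probe set and array, made with RMA, a method that subtracts background and equalises the distributions of the arrays, as the submitters' processing notes name it; the probe annotation used for gene symbols comes from the platform's table. No scanner files were used. In limma 3.58.1 (R 4.3.3) each row was fitted with 1 mean per group over all 8 arrays, and 3 contrasts were tested with eBayes (two-sided): KO minus Het in LSK, in GMP, and their difference. P-values were adjusted over the 21789 rows with 1 symbol (1621 rows with several and 12146 with none were left out). The labels call the arrays biological replicates. A gene with several rows is given by its brightest row. Classes were assigned in the order near the floor, reversal, same direction, 1 fraction alone. The script was tested on simulated data. The members and gene lists were chosen with earlier results of these data known. The naming rule took the 10 largest interactions in each direction, the 4 largest per class and direction, up to 4 called members per list, reversals up to 10 per direction, and the members of the core-binding factor and sorting marker lists; predicted genes were only counted. Of the 113 called genes it picked, 73 are described with values; these were chosen with their values known and passed more often than the others when an array was left out. Alternatives were array medians subtracted, all rows fitted, a filter at the floor, an intensity trend, a replicate block, a stricter threshold, other floors and leaving out each array.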

Additional observations from a re-analysis of the deposited data

Results flagged for a closer look

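Each gene below was singled out because the effect of genotype differed between GMP and LSK by the interaction test itself (limma, adjusted p under 0.05); the values are interactions on the log2 scale, and no explanation is weighed. Among reversals the interaction was 1.62 for Carmil2, 1.70 for Mef2c, 1.93 for Rab37, 2.10 for Prkch, 2.18 for Tspan13, 2.31 for Igf2r, 2.35 for Cavin2, 2.79 for Trp53i11, 3.48 for Pf4, 3.71 for Pdzk1ip1 and 3.86 for Il7r, and in the other direction -2.03 for Tifab and -1.53 for Fkbp1b. Near the floor in at least 1 fraction it was 1.42 for Lifr, 1.99 for Ifit3, 2.36 for Klrd1, 2.39 for Mecom, 3.11 for Cd79a, 3.34 for Ebf1, 3.58 for Blnk and 5.47 for Dntt on the positive side, and -3.41 for Cd200r3, -2.80 for Gpr141, -2.32 for Itga1, -2.03 for Mefv, -2.01 for Gimap4, -1.98 for Otogl and -1.25 for Catspere2 on the negative side. For genes that changed the same way in both fractions it was 2.14 for Nkg7, 2.15 for Lat, 2.33 for Emb, 2.39 for Maged1, 2.61 for Ctla2b, 2.76 for Atp8b4, 2.86 for Lsp1, 2.87 for Thbs1 and 2.90 for Prkcq, and, in the same class, negative at -2.99 for Cpa3, -2.74 for Aoah, -2.50 for Cd200r4, -2.43 for Fgf10, -1.77 for Sorl1 and -1.64 for Fcgr2b. For genes that passed in GMP alone it was 1.86 for Emcn, 2.04 for Foxo1, 2.24 for Hemgn, 2.32 for Zfpm1, 2.52 for Meis1, 2.77 for Egr1, 2.83 for Gimap6, 3.20 for Gp9, 3.24 for Slc14a1 and 3.61 for Mmrn1, and negative at -3.24 for Ly6a2, -2.55 for Ncam1, -2.41 for Ms4a2, -2.40 for Ccr2, -2.39 for Afap1 and -2.35 for Met. For genes that passed in LSK alone it was 2.61 for Thy1, 2.65 for Car2, 2.97 for Mcoln2, 2.997 for Cmah, 3.001 for Cd33, 3.06 for Lax1, 3.29 for Vpreb3, 4.27 for Wfdc17 and 4.30 for Ccl3, and negative at -2.64 for Papss2, -2.47 for Pla2g7, -2.09 for Chd7, -1.84 for Fcgr3 and -1.80 for Cst7. No group has the 4 arrays that a search for single outlying arrays needs.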

How the results depend on the processing

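No interaction of the 113 called genes that the naming rule picked changed sign under any alternative run. Most runs could not change a sign. Fitting all rows, the filter, the intensity trend and the replicate blocks leave the estimate of each interaction as it was. Subtracting array medians moves every interaction by the same amount, so mainly the fits without 1 array bear on the sign. The numbers of called rows moved most when all 35556 rows of the table were fitted: 101 positive and 33 negative (368 and 131 as reported), of which 9 were reversals, 23 near the floor, 12 changed in the same direction in both fractions, 41 passed in GMP alone and 49 in LSK alone; the cause was not tested. At an adjusted p under 0.01 the calls were 138 positive and 48 negative. A floor at the 90th percentile of the nose receptor rows put 56 rows near the floor, at the 99th 179, and at the median of the tested rows (4.99) 189, which left 108 rows that passed in LSK alone. The filter at the floor called 620 rows and the intensity trend 588. Over the 8 fits without 1 array, positive calls ranged from 163 to 505, negative calls from 60 to 200, reversals from 13 to 36, rows near the floor from 45 to 160, rows changed in the same direction from 25 to 81, GMP alone from 59 to 199 and LSK alone from 80 to 214; in these fits the lone array of a group was taken to vary like the others.

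The replicate numbers are shared by the groups, and the labels do not tie them to mice. Deviations from the group means of arrays with the same number correlated at 0.133 between Het LSK and Het GMP, 0.179 between KO LSK and KO GMP, -0.143 between Het LSK and KO LSK, and -0.025 between Het GMP and KO GMP. With the replicate number as a block 480 rows were called, 429 of them among the 499, and 105 of the 113 genes passed; of those described, Fcgr3 (adjusted p 0.066) and Ly6a2 (0.062) missed the threshold. With the replicate block within genotype 635 rows were called and 14 were reversals, 11 of them among the 25; Mef2c (adjusted p 0.059) and Rab37 (0.087) lost the class by their GMP effect, and Fkbp1b (0.090) and Cavin2 (0.099) by their LSK effect; the stem cell list then had 15 positive calls. With 2 arrays per group, small interactions are not detectable, and a row whose groups lie under the floor gives no information on a change.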
